A study of Sus scrofa with 2 samples.

Results

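Of the 2817 chromatin loops shorter than 400 kb on pig chromosomes 1 to 18, 176 (6.25%) left or crossed a topologically associating domain (TAD). A TAD is a stretch of chromatin that contacts itself more than its surroundings, and a loop is a pair of loci, its 2 anchors, with more contacts than the area around that pair. The 176 loops were chosen by their measured positions: at least 1 anchor had its midpoint in a listed TAD, no TAD held both midpoints, and no TAD had its start within 20 kb of the left anchor together with its end within 20 kb of the right anchor. The whole list held 3410 loops, 3261 of them on the 18 autosomes. The map is of pig spleen, made by in situ Hi-C, in which DNA fragments close together in fixed nuclei are ligated and read as pairs. It has 2 biological replicates and 1 group, for which the labels name no strain, age, sex or treatment. The loop list and the TAD list are for the series as a whole, so no value per replicate was to be had and the sequencing depth is unknown here. The contacts of each loop are therefore the only measure of its precision. Contacts hold no level of expression, so the spleen label could not be set against marker genes.

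In vertebrate nuclei, the ring-shaped cohesin complex draws chromatin into growing loops until it meets CTCF, a DNA-binding protein found at many TAD edges. Contacts that join both edges of a TAD are the familiar outcome of this process, while contacts that pass an edge link chromatin in a TAD, which may hold a gene or enhancer, with chromatin outside it. The spleen filters blood and holds many B cells, T cells and macrophages, and genes such as BCL2, TNF and UNG act in those cells.

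Below, the crossed edge is the TAD edge that lies between the anchors, the inner anchor is the one in the TAD and the outer anchor is the one beyond its edge. Where several TADs held the inner anchor, the longest was taken. Both the TADs and the loops came from the same contact map, so positions, contacts and false discovery rates (FDRs) of these loops are given as a description and no test was made on them. The genes come from an annotation that had no part in the choice. Shares by gene and some shares by position have 95% Wilson intervals. Those by position are description only, since the rule chose the loops by position. The intervals cover counting error only and take the loops as independent. They were not fully independent: the 176 loops had 330 distinct anchors, crossed 154 distinct edges of 152 TADs and formed 162 groups of touching 25 kb pixels.

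The loops fell into 5 groups by where the crossed edge lay. In 69 loops (39.2%, interval 32.3 to 46.6%) the edge lay inside the outer anchor itself, whose midpoint was past the edge by 2.5 to 7.5 kb, less than the width of 1 TAD bin of 10 kb. In 15 loops (8.52%) the edge lay inside the inner anchor, with the other anchor 92.5 to 348 kb beyond. In 35 loops (19.9%) the outer anchor cleared the edge and its midpoint lay under 50 kb past it. In 50 loops (28.4%, 22.3 to 35.5%) the outer midpoint was past the edge by 52.5 to 262 kb, with a median of 125 kb. The last 7 loops (3.98%) joined a TAD with another TAD. Both anchors were thus clear of the crossed edge in 92 of the 176 loops, and 57 of these 92 reached 50 kb or more past it or joined 2 TADs.

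**Figure D1:**
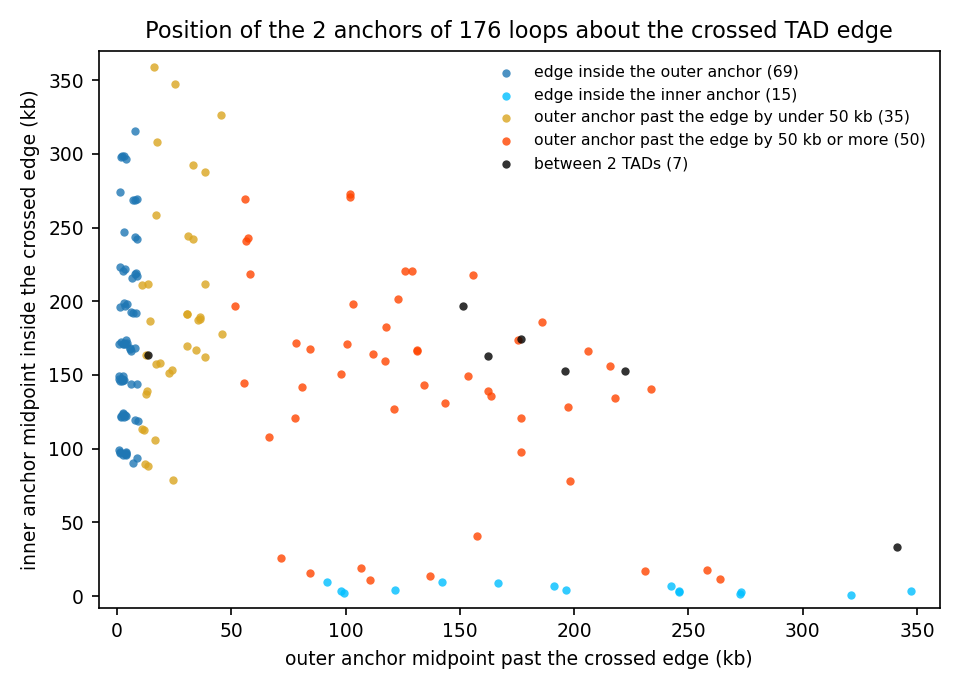
Each point is 1 of the 176 loops, with the distance of its outer anchor midpoint past the crossed TAD edge in kb on the x axis and the depth of its inner anchor midpoint inside that edge in kb on the y axis; points were moved by up to 2 kb to separate them and colours give the 5 groups. The column of points at the left holds the 69 loops whose outer midpoint was 2.5 to 7.5 kb past the edge, and the row along the bottom holds the 15 loops with the edge inside the inner anchor.

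Many of the loops came close to joining both edges of a TAD. The larger of the gaps between the anchors and the edges of the closest TAD was 20 kb in 27 loops, 25 kb in 18, 30 kb in 13 and 35 kb in 10, so 68 loops missed by 20 to 35 kb and 108 by 40 kb or more. Just inside the limit, 166 loops that joined both edges had a gap of 15 kb and 207 had a gap of 10 kb. Loops that missed by 20 kb or more with both midpoints in the same TAD were classed as inside TADs and are not counted here. The loops on either side of the limit thus differ in position, since no TAD held both midpoints of the 68. The 68 loops that narrowly missed had a median of 100 contacts, an observed over expected ratio of 2.04 and an FDR of 0.0155. The 373 loops that met both edges with a gap of 10 kb or more had medians of 113 contacts, a ratio of 2.06 and an FDR of 0.00616. The median ratio thus differed little across the limit, while the loops outside it had fewer contacts and a higher FDR. They were also longer, with a median span of 200 kb against 175 kb and a median of 49.8 expected contacts against 54.9. At the other limit, the 12 loops of 375 kb had a median of 75.0 contacts and a ratio of 2.26, and the 9 loops of 400 kb that met the same position rule but were too long had 75.0 contacts and a ratio of 2.22. Of the 444 autosomal loops of 400 kb or more, 103 left or crossed a TAD.

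**Figure D2:**
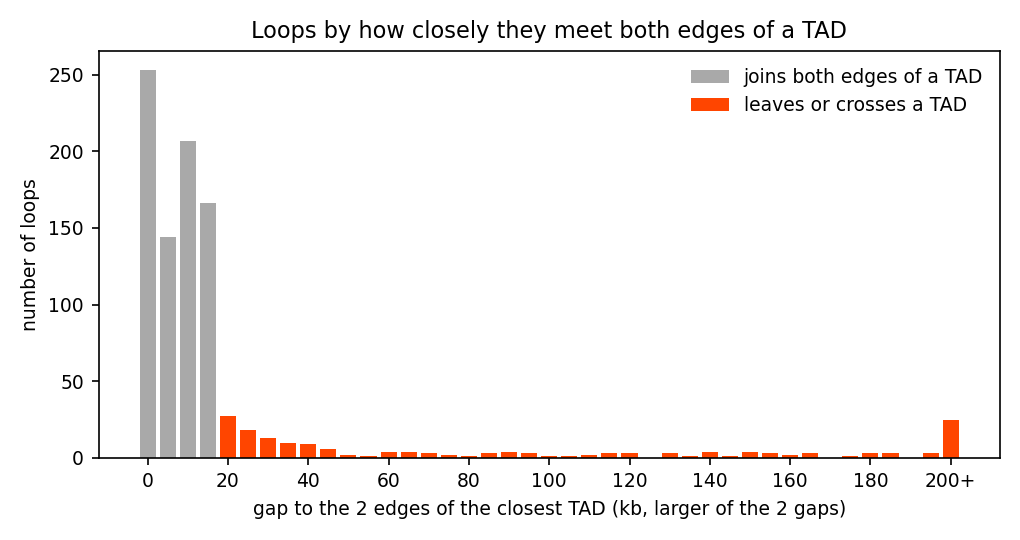
The x axis gives the larger of a loop's 2 gaps to the edges of the closest TAD in kb, in steps of 5 kb with all gaps of 200 kb or more in the last bar, and the y axis gives the number of loops. Grey bars are the 770 loops that joined both edges, and orange bars are the 176 loops that left or crossed a TAD, of which 68 lie at 20 to 35 kb and 108 farther out. Loops inside TADs that missed the edges are not drawn.

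The TAD lay to the left of the crossed edge more often than to the right. The left anchor was the inner one in 101 loops (57.4%) and the right anchor in 68. Most of this came from edges inside an anchor: of the 69 loops with the edge inside the outer anchor, 55 (79.7%, 68.8 to 87.5%) had the TAD on the left, against 2 of the 15 with the edge inside the inner anchor. Among the 50 loops that reached 50 kb or more past the edge, the TAD was on the left in 22 and on the right in 28. A similar offset was present in the loops that joined both edges. Their right anchor midpoint lay past the TAD end in 217 of 770 (28.2%), while the left midpoint lay before the TAD start in 106 (13.8%), and the median positions were 7.5 kb inside the end and 15 kb inside the start. The labels do not say how the TAD edges were placed, and the part of that placement in the lean to one side was not tested.

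Most inner anchors lay near the far edge of their TAD. The inner midpoint was within 50 kb of the far edge in 99 loops (56.2%, 48.9 to 63.4%), and the median distance was 45.0 kb, against a median depth of 158 kb from the crossed edge. Counted once per loop, the TADs that were left had a median length of 220 kb, compared with 260 kb over all 1908 autosomal TADs, each counted once. Only loops shorter than 400 kb were admitted, which limits the TADs that a loop can pass through. The shortest span was 100 kb, so an outer anchor near the crossed edge places the inner anchor well inside the TAD. Nearness to the far edge follows in part from these limits, and no other kind of loop was set beside it. A complete TAD lay within the limits of 26 loops (14.8%).

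The loops shared anchors with loops of other kinds. The inner anchor also served a loop inside a TAD in 51 of 176 loops (29.0%) and a loop joining both edges in 24 (13.6%), and the rule leaves it none with a loop outside all TADs. The outer anchor also served a loop joining both edges in 33 loops (18.8%), a loop outside all TADs in 13 (7.39%) and a loop inside a TAD in 3. The rule allows that last kind only in the 7 loops between TADs, since no other outer midpoint lay in a TAD. In all, 76 loops (43.2%) touched another listed pixel, and 38 of them touched a pixel that joined both edges of a TAD. That contact with a both-edge pixel was seen in 25 of the 69 loops with the edge inside the outer anchor and in 11 of the 35 that passed the edge by under 50 kb, but in 1 of the 50 that passed it by 50 kb or more. A both-edge pixel must have its anchors within 20 kb of the edges. Few loops past the edge by 50 kb or more could therefore touch one, and the contrast follows largely from how the groups were defined.

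The 176 loops held 32 to 246 observed contacts, with a median of 97.0 and quartiles of 78.0 and 114. Their expected contacts, taken from the ring of pixels around each loop, had a median of 48.6. The median ratio of observed to expected was 2.01, with quartiles of 1.82 and 2.25, and the median FDR was 0.0194. Contacts fall with distance, and these loops, with a median span of 225 kb, were longer than the 770 loops joining both edges (200 kb), the 1191 inside TADs (125 kb) and the 680 outside TADs (150 kb).

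Set beside loops of the same span class, the leaving or crossing loops had a lower median of contacts than loops joining both edges in every class. Spans still differed within a class. At 100 to 175 kb their median was 150 kb for leaving and both-edge loops, against 125 kb for the other kinds. At 100 to 175 kb, the 69 leaving loops had a median of 113 contacts, against 123 for loops joining both edges, 134 for loops inside TADs and 109 for loops outside TADs. At 200 to 275 kb, the medians were 90.0 for the 64 leaving loops, 108 for both-edge loops, 108 for loops inside TADs and 76.0 outside. At 300 to 375 kb, they were 80.0 for the 43 leaving loops, 93.0, 92.0 and 70.0 in the same order. By median, the leaving loops thus stood in each span class below both loop kinds that stayed in a TAD and above the loops outside TADs. Their quartile range overlapped that of each other kind in every class. At 100 to 175 kb it was 102 to 134 contacts, against 105 to 143 for both-edge loops. The ratio to the surroundings did not keep that order. It was 1.80 for leaving loops at 100 to 175 kb, below the 1.98 of both-edge loops, then 2.11 against 2.14 at 200 to 275 kb and 2.25 against 2.19 at 300 to 375 kb. Over the 13 autosomes with at least 5 of the loops, the median ratio was 2.03 ± 0.169 and the median contacts 96.8 ± 12.9 (SD, n = 13 autosomes).

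**Figure D3:**
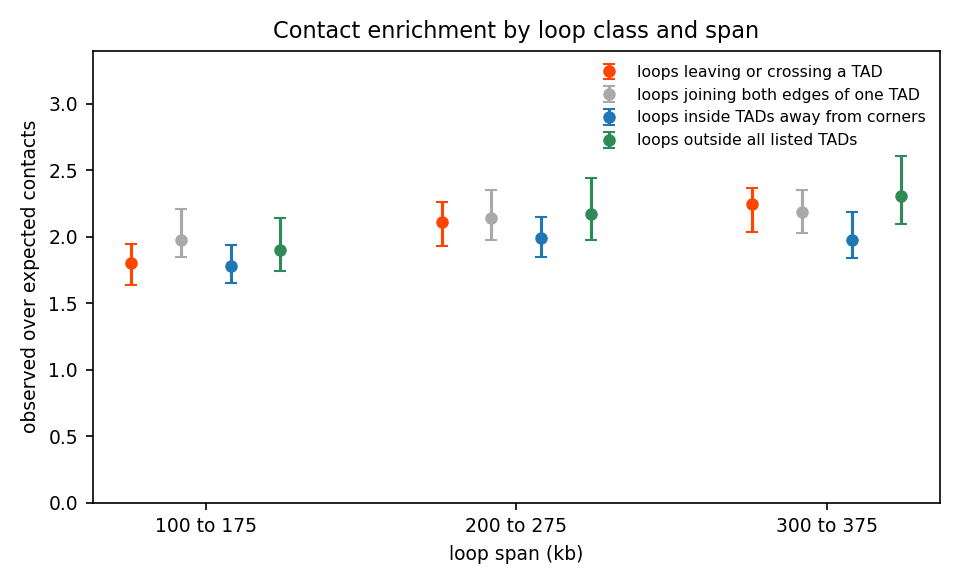
Points are median ratios of observed to expected contacts and bars are the quartiles over loops, by loop span in kb, for the 4 kinds of loop. The leaving loops (orange) rise from 1.80 through 2.11 to 2.25 over the span classes, and the quartile bars of the 4 kinds overlap in each class.

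Among the leaving loops, the groups nearer the edge had more contacts. The median was 112 contacts, with a ratio of 1.91, where the edge lay inside the outer anchor. It was 94.0 contacts and 1.95 for loops past the edge by under 50 kb, 79.5 contacts and 2.14 for those past by 50 kb or more, and 70.0 contacts and 2.20 for the 7 loops between TADs. The 15 loops with the edge inside the inner anchor had a median of 95 contacts and a ratio of 2.12 at a median span of 200 kb. The median spans of the other groups rose in the order given, from 175 through 225 and 275 to 350 kb, so distance and position cannot be told apart here.

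The loop with the lowest FDR (2.60e-09) lay on chromosome 4 and joined the bin from 2900001 to 2925000 with the bin from 3050001 to 3075000, which held an end of TRAPPC9, a subunit of a complex that tethers transport vesicles. It had 150 contacts against 63.5 expected, and its right anchor midpoint lay 2.5 kb past the end of a TAD of 180 kb. Its excess over the surroundings is clear, but its exit from the TAD is smaller than a bin.

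The next loop left its TAD by a wide margin. On chromosome 8, its left bin, from 112400001 to 112425000, covered an end of GAR1, a protein of the small nucleolar ribonucleoproteins that modify ribosomal RNA and of telomerase. Its right bin, from 112750001 to 112775000, covered an end of SEC24B, a coat protein of vesicles that leave the endoplasmic reticulum. It had 94 contacts against 29.7 expected, a ratio of 3.17 and an FDR of 3.45e-09. The TAD from 112540001 to 112780000 held the SEC24B anchor, GAR1 lay 127.5 kb beyond it, and the crossed edge was in the body of MCUB, which encodes a subunit of the mitochondrial calcium uniporter. Of the 10 loops with the lowest FDR, this was 1 of 2 whose outer midpoint was 50 kb or more past the edge with both anchors clear of it.

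The other of these loops, on chromosome 12 from 40975001 to 41250000, had the highest ratio of all 176 but few contacts: 32 against 3.68 expected, a ratio of 8.69. It crossed the start of a TAD of 780 kb by 232.5 kb, and neither anchor held a protein-coding gene end. The next highest ratio was 3.26, on chromosome 4 from 10425001 to 10750000, with 47 contacts against 14.4 expected, and its crossed edge lay in FAM49B, a regulator of the actin cytoskeleton. Both high ratios thus rest on low expected values. Of the 10 loops with the highest ratios, the other loops had ratios of 2.56 to 3.17. Among them, 74 contacts against 28.8 expected led over 375 kb from RAPGEF5, an activator of Rap proteins, to a bin 17.5 kb past the end of its TAD on chromosome 9. On chromosome 1, 51 contacts against 19.9 expected crossed an edge in PRDM13, a developmental transcription factor, by 122.5 kb. On chromosome 14, 70 against 26.7 joined a pair of TADs over 350 kb with no gene end in either anchor. Neither anchor held a protein-coding gene end in 5 of these 10 loops.

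The other 7 of the 10 lowest FDRs had 83 to 135 contacts. On chromosome 4, 122 contacts joined SLC22A15, a solute carrier, to CASQ2, the calcium-binding calsequestrin of heart muscle, with the edge 2.5 kb inside the outer midpoint. On chromosome 1, 113 contacts against 41.2 expected joined the start of the TAD that holds MALT1, the protease that relays antigen receptor signals to NF-kB in lymphocytes, to a bin 272.5 kb outside it. The edge lay inside the inner anchor there, so the loop starts at the TAD's rim. On chromosome 11, 97 contacts against 38.4 expected joined bins under the body of LHFP, and on chromosome 9 the edge crossed by a loop of 135 contacts lay in RASAL2, a regulator of Ras. On chromosome 16, a loop with a ratio of 2.21 over 53.5 expected contacts ended at CAPSL and UGT3A2, a glycosyltransferase, with the edge in UGT3A2. On chromosome 1, 83 against 32.4 crossed an edge in AKAP12, an anchoring protein of kinases, by 32.5 kb. The loop of 120 contacts on that chromosome belongs to the TAD of DAAM1.

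A gene end in an anchor was about as frequent as among loops in general. A gene end means either annotated end of a protein-coding gene, since the gene table does not give strand. It lay in at least 1 anchor of 124 of the 176 loops (70.5%, interval 63.3 to 76.7%), against 71.0% of all 2817 autosomal loops under 400 kb. It lay in both anchors of 56 loops (31.8%, 25.4 to 39.0%), against 28.4% of all, and in neither anchor of 52. The inner anchor held a gene end in 87 loops (49.4%) and the outer anchor in 93 (52.8%), so the sides were alike within their counting error. The share with any gene end was 71.4 ± 15% over the 13 autosomes with at least 5 of the loops (SD, n = 13) and 71.3 ± 8.15% for the other loops there, and it was higher in the leaving loops on 7 of the 13. Among loops with an FDR up to 0.0129, the median over all autosomal loops, the 70 leaving loops had a lower share, 60.0%, against 72.0% for the other loops.

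Gene ends in both anchors were most frequent among the shortest leaving loops. At 100 to 175 kb the share was 43.5% (32.4 to 55.2%) of the 69 leaving loops, against 27.8% of loops joining both edges, 27.9% inside TADs and 38.6% outside. At 200 to 275 kb it was 21.9% (13.5 to 33.4%) against 25.3%, 26.9% and 28.5%, and at 300 to 375 kb it was 27.9% (16.7 to 42.7%) against 15.7%, 9.80% and 18.9%. By these values the leaving loops were highest at the shortest and longest spans and lowest in between. Their interval overlapped that of each other kind at 200 to 275 kb and at 300 to 375 kb. At 100 to 175 kb it stood apart only from that of loops inside TADs (25.1 to 30.9%). By position, the share was 42.0% (29.4 to 55.8%) in the 50 loops past the edge by 50 kb or more, 30.4% where the edge lay inside the outer anchor and 17.1% (8.10 to 32.7%) in those past it by under 50 kb. No test of these shares was made, and the intervals of the first and last of these overlap.

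**Figure D4:**
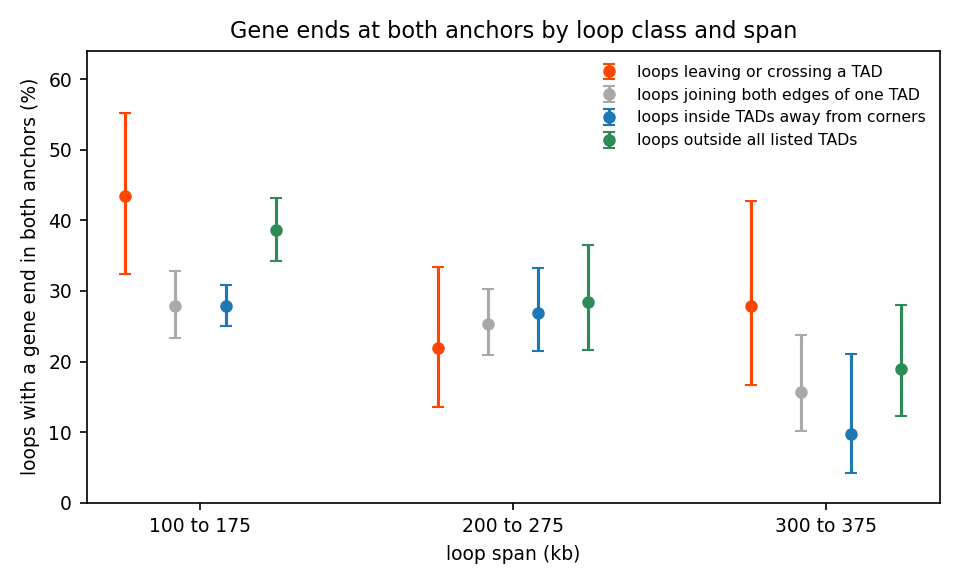
Points are the percent of loops with a protein-coding gene end in both anchors and bars are 95% Wilson intervals, by loop span in kb, for the 4 kinds of loop. The leaving loops (orange) are at 43.5, 21.9 and 27.9%, with intervals that overlap those of the loops outside TADs in each span class.

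Crossed edges often lay within genes, as other edges did. Of the 154 crossed edges, 88 (57.1%, 49.2 to 64.7%) lay under a protein-coding gene body, compared with 1959 of 3630 other autosomal edges (54.0%, 52.3 to 55.6%). In 13 loops (7.39%, 4.37 to 12.2%) the same gene body covered parts of both anchors. That share was 7.01% in loops joining both edges, 17.6% (15.6 to 19.9%) in loops inside TADs and 8.97% outside TADs. Loops inside TADs were shorter. Even at 100 to 175 kb their median span was 125 kb, against 150 kb for leaving loops. In that span class the leaving loops stood at 11.6% (5.99 to 21.2%) against 20% (17.5 to 22.7%) inside TADs. At 200 to 275 kb they stood at 7.81% (3.38 to 17.0%) against 11.0% (7.48 to 15.8%). These intervals overlap, and none of the 43 leaving loops of 300 to 375 kb had a gene body over parts of both anchors (0%, up to 8.20%).

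The genes of those 13 loops were ADCY5, ARHGAP18, CGNL1, CLOCK, DAB2, IGF1R, KSR1, LHFP, NEDD4L, RAD51B, SPRY1, TAOK1 and WWOX. They are named here because the count calls for it and were chosen after their values were seen. Within IGF1R, the receptor of insulin-like growth factor 1, 93 contacts spanned 200 kb, and the edge lay inside the inner anchor and in the gene. WWOX, a gene of 961 kb at a common fragile site, held a loop of 275 kb with 58 contacts, 197.5 kb past the edge. RAD51B, a DNA repair gene of 709 kb, held one of 275 kb with 90 contacts, 262.5 kb past the edge. Both of these long genes held the crossed edge and parts of both anchors of its loop. CLOCK, a core gene of the circadian clock, had 114 contacts over 100 kb, with the edge 2.5 kb short of the outer midpoint.

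Anchors of the 176 loops covered an end of 261 (1.39%) of the 18722 autosomal protein-coding genes: 128 at inner anchors and 136 at outer anchors, with 3 of these at both. Of the 261, 241 had 1 loop, 19 had 2 and 1 had 3. The repeats are partly neighbouring pixels or neighbouring genes in a bin, so a second loop is seldom an independent measurement. The gene table is of the assembly Sscrofa11.1, and no file header names the build of the loops.

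RPL26L1, a close relative of a ribosomal protein of the large subunit, was the gene with 3 loops, on chromosome 16 from 51267492 to 51276692. Its ends lay in adjoining bins, so it took part in loops of a pair of TADs. The bin from 51250001 to 51275000, at the end of the TAD from 51120001 to 51270000, joined bins 225 and 200 kb to its left with 122 contacts against 57.7 expected and 134 against 71.2. These loops are touching pixels and count as 1 group. The same bin held an end of ATP6V0E1, a subunit of the proton pump that acidifies lysosomes. The adjoining bin, with RPL26L1 and ERGIC1, a protein of the compartment between endoplasmic reticulum and Golgi, joined DUSP1 across 175 kb with 133 contacts against 81.3 expected. DUSP1 is a phosphatase that turns off MAP kinases, and the edge of its TAD from 51290001 to 51510000 was 2.5 kb from the outer midpoint, in ERGIC1.

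RPL11, a ribosomal protein that also binds the p53 regulator MDM2, lay on chromosome 6 at an outer anchor. To its left, 164 contacts against 105 expected joined it over 100 kb to ID3, an inhibitor of the E proteins that guide lymphocyte development. The crossed edge lay inside the RPL11 anchor, and the ratio was low, 1.56.

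On chromosome 2, 4 genes shared an outer anchor: BSCL2, which encodes the lipid droplet protein seipin, GNG3, a G protein subunit, LRRN4CL, and UBXN1, an adaptor of the p97 segregase. That bin, from 9050001 to 9075000, had 148 contacts against 78.7 expected with the bin of TUT1, a terminal uridylyltransferase, and EEF1G, a translation elongation factor, 100 kb away. It had 90 contacts against 42.0 expected with SCGB1A1, a secretoglobin of airway cells, 250 kb away. In the first loop the edge lay inside the inner anchor, and in the second the inner anchor was clear of it. The outer midpoint was 97.5 kb outside the TAD in both.

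UNG, the uracil-DNA glycosylase that acts after AID in antibody class switching and in base excision repair, shared a bin on chromosome 14 with ALKBH2, which removes alkyl groups from DNA, and USP30, a deubiquitinase of mitochondria. The bin, from 41750001 to 41775000, lay 157.5 kb before the TAD from 41920001 to 42250000 and formed loops at separate places in it. The longer, of 375 kb, led to CORO1C, an actin-binding coronin, with 80 contacts against 34.1 expected, a ratio of 2.35 and an FDR of 5.19e-05. The shorter, of 200 kb, led to the bin with ends of DAO, D-amino acid oxidase, and SSH1, a cofilin phosphatase, with 68 contacts against 35.4 expected and an FDR of 0.0200. The contacts of these single pixels differ by about their counting error. Neither touched another pixel, and the crossed edge lay in SVOP. A loop of 122 contacts stayed inside the TAD and shared the DAO and SSH1 anchor.

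**Figure D5:**
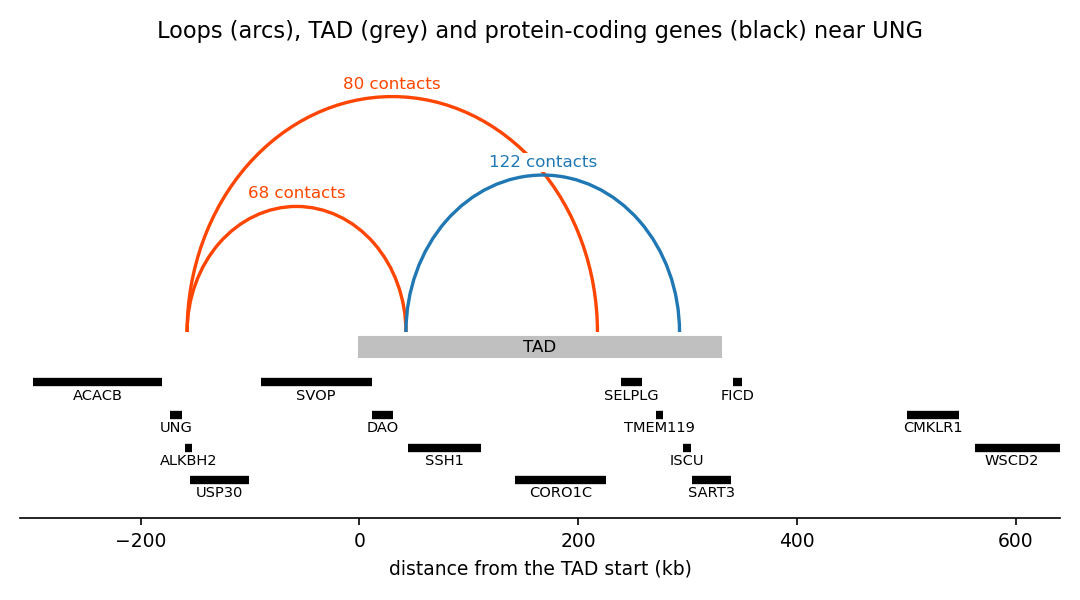
Distance in kb from the start of the TAD (grey bar) is on the x axis; arcs join the midpoints of loop anchors and are labelled with observed contacts, orange for loops that leave the TAD and blue for the loop inside it, and black bars are protein-coding genes, with their height of no meaning. The orange arcs of 68 and 80 contacts start from the bin of UNG, ALKBH2 and USP30 at 157.5 kb before the TAD, and the arc of 122 contacts shares the anchor at 42.5 kb.

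MTA3, a subunit of the NuRD chromatin remodelling complex that works with BCL6 in germinal centre B cells, lay at an outer anchor on chromosome 3 whose midpoint was 37.5 kb before the TAD from 97650001 to 97840000. It had 87 contacts over 200 kb with a bin that held no gene end, and 77 over 225 kb with the adjoining bin of KCNG3, a potassium channel subunit. The crossed edge was in MTA3 itself, 25 kb from the outer anchor, and the KCNG3 bin held the far edge of the TAD. TAOK1, a kinase upstream of MAP kinases, had 112 contacts over 175 kb with a bin that covers its own other end, ABHD15, TP53I13 and GIT1, and 76 over 350 kb with a bin in another TAD. N4BP1, an inhibitor of NF-kB signalling, was the outer anchor of touching pixels of 98 and 110 contacts on chromosome 6, over 325 and 300 kb, and their inner bins held no gene end. The pre-mRNA splicing helicase DHX38 and its neighbour PMFBP1 had 117 and 111 contacts over 125 and 100 kb, the latter with IST1, a part of the membrane scission machinery, and the edge lay in DHX38.

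The HOXC cluster gave loops between TADs. HOXC genes encode transcription factors that set position along the body axis, and the ends of HOXC8, HOXC6 and HOXC5 shared the bin of chromosome 5 from 19225001 to 19250000. It joined the bin of SMUG1, a uracil-DNA glycosylase, over 175 kb with 87 contacts against 39.5 expected, and the bin of GPR84, a fatty acid receptor of myeloid cells, and ZNF385A over 325 kb with 58 against 22.2. The ratios were 2.20 and 2.61. The first ended 12.5 kb past the edge, which lay in SMUG1, and touched a pixel that joined both edges of a TAD. The second ended 162.5 kb past it in another TAD and touched none.

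Genes of the immune and other lists were at these anchors about as often as genes in general. Of 710 entries in 21 lists, 684 matched a protein-coding gene, 648 distinct genes lay on autosomes and 11 of those had an end at one of the 176 loops, in 8 of the lists. That is 1.70% of the list genes, against 1.39% of all autosomal protein-coding genes. Single lists held 0 to 2 genes each, too few to give a share. The genes of B cells (0 of 26), T and NK cells (0 of 42), the interferon response (0 of 33), neutrophils and mast cells (0 of 18) and erythroid cells (0 of 20) had none. The genes of chromatin architecture (0 of 24) and of transposable element silencing (0 of 24) also had none. At the background share each of these lists would hold under 1 gene, so a count of 0 says little.

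The loops of immune list genes mostly passed the edge by a short distance, as the 176 loops did in general (median 22.5 kb past it). MZB1, a chaperone of antibody assembly in plasma cells, was 1 of 14 of its list. Its bin, which also held ends of SLC23A1, PROB1, SPATA24 and DNAJC18, joined UBE2D2, a ubiquitin-conjugating enzyme, over 100 kb with 112 contacts against 72.0 expected. SIRPA, the macrophage receptor that reads the signal CD47, was 1 of 34 and joined the kinase STK35 over 225 kb with 92 against 47.4. PSMB9, a subunit of the immunoproteasome that cuts antigens, was 1 of 26 and shared its bin with BRD2. That bin joined RING1, a Polycomb protein, over 175 kb with 115 against 50.9. MZB1 and SIRPA were at the outer anchor, 2.5 and 32.5 kb past the edge by its midpoint. PSMB9 was at the inner anchor, 172.5 kb inside the edge, and the bin of RING1 was the one 2.5 kb past it. ICAM1, an adhesion molecule of vessel walls, shared its bin with ICAM4 and genes without a symbol. That bin had 164 contacts with CDC37, a partner of HSP90, against 99.6 expected. ICAM1 was at the inner anchor, 97.5 kb inside the edge, and CDC37 lay at the edge.

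TNF, the inflammatory cytokine, and LTA, lymphotoxin alpha, shared an outer anchor on chromosome 7 with NFKBIL1. They had 158 contacts over 100 kb, against 96.2 expected, with a bin of 4 gene ends that included CSNK2B, the regulatory subunit of casein kinase 2. The anchor midpoint was 82.5 kb before the TAD and the edge lay in APOM, which encodes an apolipoprotein. The ratio of 1.64 and the FDR of 0.0694 make it one of the weaker loops of the list. DUSP1 and RPL11 are described above. The other ribosomal protein gene, RPL37A, had 99 contacts against 40.4 expected over 150 kb with the bin of IGFBP2 and IGFBP5, which encode binding proteins of insulin-like growth factors, and its ratio of 2.45 was the highest of the 11 list genes after the HOXC genes.

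Some further loops were picked after their values were seen, by genes among the 261 at the anchors. They give no share of immune genes, and the lists of B cells (0 of 26) and of T and NK cells (0 of 42) had none there. BATF, a transcription factor of T and B cell activation, had 67 contacts against 31.8 expected with TMED10, a cargo receptor of secretory vesicles, over 350 kb and 217.5 kb past the edge. MEF2B, a germinal centre transcription factor, had 83 against 36.7 with a bin of 4 genes that included GATAD2A, a NuRD subunit, over 300 kb and 162.5 kb past the edge. NFAM1, a receptor of B cells with an activating motif, had 81 against 37.8 with SEPT3 over 375 kb. PTPN4, a tyrosine phosphatase, had 79 against 40.4 with EPB41L5 over 350 kb, with the edge in EPB41L5. In each of these 4 the outer midpoint cleared the edge by over 100 kb. The bin of ITGAL, the alpha chain of the lymphocyte integrin LFA-1, also held ends of ZNF764 and ZNF768. Its loop had 191 contacts against 124 expected, but the outer midpoint was 12.5 kb past the edge and the FDR was 0.0872. VEGFA, the vessel growth factor, had 109 against 48.9 over 350 kb from a bin that straddled a TAD end, and the gene itself lay just past that end. The most contacts of all, 246 against 151 expected, joined the end bin of GNL1 and PRR3 on chromosome 7 to a bin 100 kb away, and the edge lay in GNL1.

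Other gene types were also present. An end of a long non-coding RNA gene lay in 58 loops (33.0%, 26.4 to 40.2%), compared with 27.2% of all loops under 400 kb, and a pseudogene end in 11 (6.25%) against 6.67%. MicroRNA genes lay in 4 loops (2.27%, 0.887 to 5.70%), against 0.958% of all, and were MIR132, MIR212, MIR219A and MIR615, named after their values were seen. Their counts are too small to separate from the background.

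Of the 152 TADs, 130 were left by 1 loop and 22 by 2 or more, with 3 as the most. The TAD of DAAM1, a formin that builds actin filaments, on chromosome 1 from 188320001 to 188580000, was left by 3 touching pixels of 275 to 300 kb with 88, 94 and 120 contacts. All ran from its right part to bins 32.5 or 57.5 kb before its start, and no loop was listed inside the TAD. The pixel of 120 contacts nearly joined both edges, with anchors 20 kb from the start and 5 kb from the end. The gene-rich TAD on chromosome 12 from 51990001 to 52180000 held 11 genes, among them CXCL16, a chemokine that is also a scavenger receptor, and ARRB2, an arrestin. Its 3 loops had 80, 85 and 113 contacts and crossed its end in PELP1, a coregulator of nuclear receptors. Loops of 80 and 85 contacts reached 132.5 kb beyond, and 1 of them began at MINK1, a kinase.

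Of the 22 TADs, the other 20 had 2 loops each, and the longest of them are described. In the TAD of KDSR, a sphingolipid enzyme, and BCL2, the inhibitor of cell death that B and T cells rely on, the bin with ends of both genes had 101 contacts against 45.0 expected with the TAD's end, and the outer midpoint was 2.5 kb past it. The loops of this TAD are touching pixels of 93 and 101 contacts at 275 to 300 kb. The TAD of the UNG loops is described above, and the TADs of DHX38 and N4BP1, both of 320 kb, came next. In these last 2 the loops were also touching pixels. Of the 6 TADs, the UNG and MINK1 ones were left by loops of more than 1 pixel group.

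The loops were spread over all 18 autosomes and made up 6.03 ± 2.52% of the loops of each (SD, n = 18), from 1.08% on chromosome 17, with 1 loop, to 11.0% on chromosome 16, with 8. Chromosome 1 had the most, 25 (8.53%), with 48.0% at a gene end against 69.0% of its other loops and 1 loop with gene ends in both anchors. Chromosome 2 had 19 (8.80%), with 84.2% at a gene end and 12 loops with gene ends in both anchors. Without chromosome 1, the share with gene ends in both anchors was 36.4% of 151 loops, against 29.3% of the others, so that 1 chromosome moved it by less than its counting error.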

How the data were processed

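The 2 samples, biological replicates of 1 group per the labels, yielded 1 loop list and 1 TAD list for the series, with pooling and the TAD caller not given in the sources at hand. HiC-Pro 3.1.0 is named per the submitters' processing notes, and per the file headers juicer_tools 1.9.9 wrote the loop list. The deposited loop table gives the observed contact count per 25 kb pixel, not normalized. Its expected signal, also the authors', comes from the donut around the pixel and has the unit of the count. The deposited table gives 4 FDRs per loop, q-values with a listed maximum of 0.0999, of which the largest was used. TAD coordinates are multiples of 10 kb.

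Loops were classed with Python 3.11.15, pandas 2.3.3 and numpy 2.4.6 (checked on simulated loops), and observed was divided by expected contacts. Gene ends were matched to 25 kb anchors in the RefSeq table of Sscrofa11.1, which holds no strand. The members, lists and rules were chosen with earlier results of these data known. Genes were named by rule: anchors of the 10 lowest FDRs and 10 highest ratios, the 15 named genes with most loops, up to 4 per list and the 5 TADs left most (ties by length; the next one, of equal length, was added). Genes without a proper name were not printed, and a result that the rule named is not reported here. Alternatives changed the edge window, span, anchor rule, pixel grouping, FDR, TAD merging and gene definition. No replicate could be left out, and no sequence or repeat was analysed here.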

Additional observations from a re-analysis of the deposited data

How the results depend on the processing

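The count of leaving or crossing loops followed the rule's settings: 176 became 277 with an edge window of 10 kb and 108 with 40 kb, 325 when a complete anchor had to lie in the TAD, and 70 with an FDR up to 0.0129, the autosomal median. Settings added after seeing the data left 92 with both anchors clear of the crossed edge and 116 that touch no pixel of another kind. The other 5 settings (spans of 300 and 500 kb, 1 pixel per touching group, merged TADs, without chromosome 1) stayed within 1.5 times of 176. The share with a gene end in either anchor moved to 60.0% below that FDR (72.0% of other loops), 79.5% with all annotated genes (78.7%), 94.3% with gene bodies (93.5%) and 83.0% with anchors widened by 10 kb (85.9%). The share with gene ends in both anchors moved to 39.2% (36.7%), 57.4% (58.8%) and 54.5% (46.9%) under those last 3. The median observed over expected ratio moved to 2.22 below that FDR (2.09), where lower FDRs select higher ratios. The other 10 settings for the either-anchor share, 11 for the both-anchor share and 10 for the ratio gave values within the interval or the SD between autosomes of the main value. Leaving out a replicate and using gene starts alone were not run, since the lists hold no replicate values and the gene table no strand. Contacts of 32 to 246 per loop limit the precision, and the loops' own replicate spread is unknown.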

Other observations

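The genes at the anchors included 20 without a proper symbol among the 261, and 13 of the 21 gene lists had no gene there. In the 108 loops that missed both edges of a TAD by 40 kb or more, gene ends lay in both anchors of 37.0% (28.5 to 46.4%), compared with 23.5% of the 68 loops that missed by 20 to 35 kb and 23.9% (19.8 to 28.4%) of the 373 loops that met both edges with a gap of 10 kb or more. These shares were set side by side after the values were seen and were not tested. Of the 57 loops with both anchors clear of the edge that reached 50 kb or more past it or joined 2 TADs, 13 (22.8%, 13.8 to 35.2%) ended within 20 kb of some other TAD edge. Of the edges crossed by 50 kb or more with both anchors clear, 30 of 48 (62.5%, 48.4 to 74.8%) lay under a protein-coding gene body.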
